A study of Mus musculus with 6 samples.

Results

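Triacylglycerol, the neutral lipid that fills lipid droplets, is assembled stepwise from glycerol-3-phosphate and fatty acyl-CoA. The 9 genes described here encode enzymes of that route. They were taken by symbol as a list of named enzymes, without use of their measured values, though earlier results of these data were known. They comprise the mitochondrial glycerol-3-phosphate acyltransferase gene Gpam, the 1-acylglycerol-3-phosphate acyltransferase genes Agpat1, Agpat2, Agpat3 and Agpat5, the phosphatidic acid phosphatase genes Lpin1 and Lpin2, and the diacylglycerol acyltransferase genes Dgat1 and Dgat2. All 9 were found among the 48967 genes with summed counts, and all 9 were among the 16020 genes that passed the filter on low counts and were tested.

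RNA was measured in 2-cell embryos of the strain F1 (C57Bl/10 X CBA/H), genotype wt, in 3 control and 3 delipidated libraries, each made from 3 pooled embryos. By the labels all zygotes were kept in KSOM medium without fatty acids from 0.5 to 2.0 dpc and the embryos were taken on day 2. The study's results section places the sequenced embryos a day after delipidation of the zygote, an interval that the labels do not give. For the delipidated group the zygotes were treated with cytochalasin B and centrifuged in 2 rounds. The former round gathered the droplets at one side and the latter moved them into the perivitelline space, beneath the zona pellucida. The droplets were then drawn off through a laser opening in the zona pellucida. According to the study's methods the control zygotes were cultured without that manipulation, so the removal of lipid and the handling cannot be told apart in this comparison. Donor females were hormonally stimulated and their embryos pooled before allocation, so that the libraries are separate pools of embryos from a shared collection rather than separate litters. The question addressed was whether RNA of the enzymes that rebuild the droplet lipid differed after the droplets had been taken out.

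In this pathway the acyltransferases coded by Gpam and its relatives add the first fatty acid to glycerol-3-phosphate and give lysophosphatidic acid. Enzymes of the Agpat family add another and give phosphatidic acid, which the lipins dephosphorylate to diacylglycerol, and the Dgat enzymes add the last fatty acid. The intermediates before diacylglycerol acylation also feed the synthesis of membrane phospholipids, so most of these enzymes serve both membranes and storage.

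Library depth differed between samples, and the counts assigned to genes totalled 12164963, 16165958 and 12980787 in control replicates 1, 2 and 3 and 20059460, 16332103 and 14683741 in delipidated replicates 1, 2 and 3. Genes with at least 1 count numbered 22855, 22437 and 20582 in the controls and 17091, 19408 and 20158 after delipidation. All 3 delipidated libraries thus had fewer genes with a count than all 3 control libraries, with the fewest in delipidated replicate 1, which had the highest total. The deposited counts refer to exonic parts, the segments into which the exons of a gene were cut, and 1 read over neighbouring segments adds to every segment it touches. Levels are given as CPM, the summed counts of a gene scaled to library size with TMM factors, and the number of parts with a count is given where few parts carried the signal.

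Marker genes of the labelled stage were abundant. The 10 markers of the 2-cell stage summed to 368, 239 and 371 CPM in the control libraries and 264, 353 and 378 CPM in the delipidated libraries, with none at 0 in all libraries. The 10 oocyte transcripts summed to 2906, 1600 and 2688 CPM against 1841, 2195 and 3053 CPM, and Btg4 was the most abundant of them. Both lists overlapped between the groups. Apart from the oviduct list, lists for other cells were low beside these. The cumulus, leukocyte and stromal sums nevertheless lay within the range of Gpam, 1 of the enzymes, at 1.18 to 23.1 CPM. The 10 cumulus and granulosa cell markers summed to 5.40, 10.3 and 17.1 CPM against 1.38, 9.58 and 11.9 CPM, with Tnfaip6 the most abundant and Foxl2 and Ptx3 at 0 in all 6 libraries. The 6 leukocyte markers summed to 13.2, 9.37 and 6.31 CPM against 4.59, 2.64 and 8.82 CPM, led by Csf1r, and the 6 stromal markers to 5.48, 9.98 and 6.08 CPM against 1.93, 3.50 and 4.09 CPM, led by Pdgfra. All 3 delipidated libraries were thus below all 3 control libraries in the stromal sum, at these low levels. The 5 oviduct markers summed to between 82.8 and 227 CPM, nearly all from Epcam at 82.5 to 221 CPM, a gene that pluripotent cells also express. The 4 adipocyte markers summed to at most 9.77 CPM, with Adipoq at 0 in all 6 libraries and Plin1, itself a droplet coat gene, the most abundant. The 3 hepatocyte markers summed to at most 0.759 CPM, led by Ttr, with Apoa1 at 0 in all 6 libraries. The part of other cells in the values of the enzymes was not tested.

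None of the 9 enzymes was called higher and none was called lower in delipidated embryos by edgeR's quasi-likelihood test, where a call needed a Benjamini-Hochberg adjusted p under 0.05 over all tested genes and a log2 fold change beyond 1. The same test called 0 of 16020 genes higher (0%) and 0 lower (0%). At an unadjusted p under 0.05 the test had 184 genes higher (1.15%) and 279 lower (1.74%), and 0 of the 9 enzymes were among either. DESeq2 called 9 genes higher (0.0442% of the 20374 genes to which it gave an adjusted p, among 30967 with a count) and 40 lower (0.196%), and again 0 of the 9 enzymes. Of the enzymes, 5 had a positive and 4 a negative log2 fold change, with a median of 0.03 beside a median of -0.00073 over all tested genes, of which 8004 were positive and 8016 negative. Single libraries moved the median over the enzymes, from -0.37 without control replicate 1 to 0.23 without delipidated replicate 1, so its sign is not fixed by these data.

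Groups that did not overlap were counted without a test. Every delipidated library was above every control library for 1 of the 9 enzymes, Agpat2, and for 611 of 16020 tested genes (3.81%). Every delipidated library was below every control library for 1 of the 9, Lpin1, and for 809 tested genes (5.05%). With 9 genes, 1 in each direction is not read as more than this background.

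**Figure D1:**
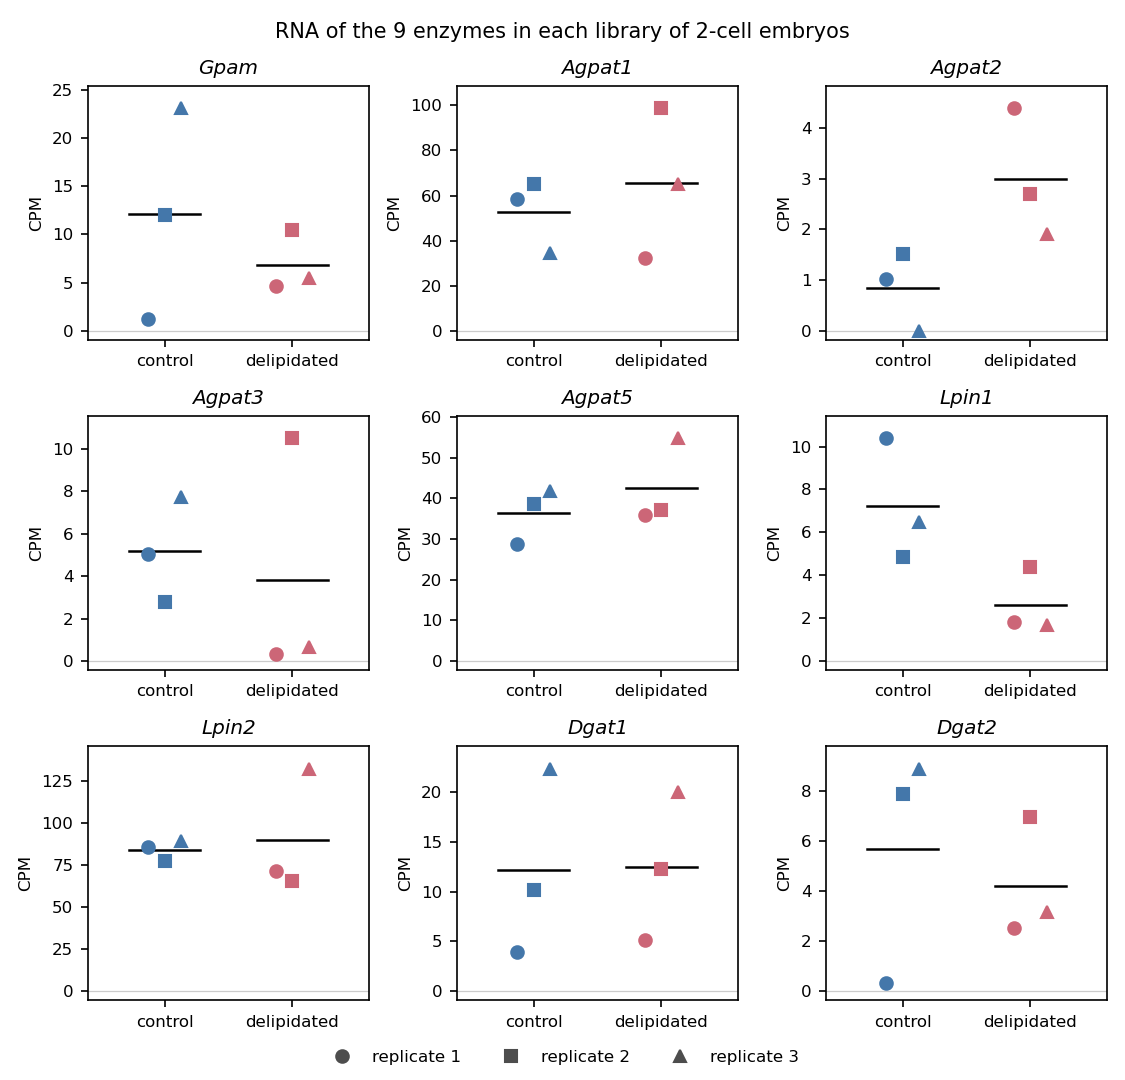
Each panel plots the CPM of 1 enzyme in the 3 control and the 3 delipidated libraries of 2-cell embryos, with a symbol for each replicate number and a horizontal line at the group mean. Only Agpat2, with delipidated libraries at 1.91 to 4.39 CPM against 0 to 1.51 CPM, and Lpin1, at 1.69 to 4.36 CPM against 4.84 to 10.4 CPM, have groups that do not overlap.

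Gpam codes for the outer mitochondrial membrane enzyme that takes the first step. On build mm10 its exonic parts in the files lie on chromosome 19 from 55069734 to 55099451, minus strand. Gpam was at 1.18, 12.0 and 23.1 CPM in control replicates 1, 2 and 3 and at 4.69, 10.5 and 5.44 CPM in delipidated replicates 1, 2 and 3. The control libraries spanned the widest range and enclosed all delipidated ones, with group means of 12.1 ± 11.0 (SD, n = 3) and 6.88 ± 3.16 CPM (SD, n = 3). The log2 fold change, delipidated over control, was -0.81 ± 0.82 (SE), with a 95% interval from 0.163-fold to 1.99-fold and an edgeR adjusted p of 1.00. Without control replicate 3 it was 0.05, so the sign rested on that library. In the controls 6, 15 and 18 of the 21 parts of Gpam had counts, and in the delipidated libraries 8, 11 and 11 parts, and 1 part had a count in all 6. As pools of whole embryos were sequenced, fewer cells with a transcript and less transcript per cell cannot be told apart.

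Among the other enzymes of the first step, Gpat3 and Gpat4 were at a higher level per length than Gpam and Gpat2 at a lower one. The level per length depends on how the exons are cut, and other lengths were not tried for Gpat2, Gpat3 and Gpat4. In CPM per kilobase of exonic parts, Gpat3, which codes for an endoplasmic reticulum acyltransferase, had a mean of 19.9 ± 6.84 (SD, n = 6) and its close relative Gpat4 a mean of 9.46 ± 2.11 (SD, n = 6), beside 2.47 ± 2.03 (SD, n = 6) for Gpam. The lowest library of Gpat3, at 8.93 CPM per kilobase, was above the highest of Gpam, at 6.03, whereas for Gpat4 the lowest was 5.89. Gpat2, which codes for another mitochondrial acyltransferase and is named here after its values were seen, had a mean of 0.836 ± 0.950 CPM per kilobase (SD, n = 6). All parts of Gpat3 stood under identifiers shared with another gene and were assigned by the reference annotation. In CPM, Gpat3 was at 85.4, 50.9 and 29.0 in control and at 69.8, 87.9 and 63.5 in delipidated libraries, with a log2 fold change of 0.42 ± 0.37 (SE), and Gpat4 at 67.6, 68.1 and 39.4 against 54.2, 78.4 and 71.6, with a log2 fold change of 0.22 ± 0.31 (SE). Control replicate 3 was the lowest library for both, the groups overlapped, and neither was called.

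Agpat1 codes for an endoplasmic reticulum enzyme of the next acylation and lies on chromosome 17 from 34604262 to 34613449, plus strand. It was at 58.5, 65.0 and 34.4 CPM in control replicates 1, 2 and 3 and at 32.3, 98.7 and 65.2 CPM in delipidated replicates 1, 2 and 3. The lowest and the highest library were both delipidated, so the groups overlapped fully, with means of 52.6 ± 16.1 (SD, n = 3) and 65.4 ± 33.2 CPM (SD, n = 3). Delipidated over control, Agpat1 had a log2 fold change of 0.31 ± 0.40 (SE), with a 95% interval from 0.672-fold to 2.30-fold, and it was -0.11 without delipidated replicate 2. Of its 22 parts, 11 had counts in all 6 libraries, which is dense coverage beside that of Agpat2 and Agpat3. The last parts of Agpat1 overlap exons of Egfl8 on the opposite strand and held 14.4% of its counts. The Egfl8 parts at that place had counts too, at most 36, 37 and 6 per part in control and 71, 76 and 38 in delipidated libraries. Without these parts of Agpat1, an alternative chosen after seeing the data, its log2 fold change was 0.31.

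Agpat5 codes for a family member reported at mitochondria and the nuclear envelope, and lies on chromosome 8 from 18846277 to 18891361, plus strand. Its levels were 28.7, 38.6 and 41.7 CPM in the control libraries and 35.8, 37.0 and 54.8 CPM in the delipidated libraries. Delipidated replicate 3 was above all others and control replicate 1 below all others, while the remaining 4 libraries lay within 35.8 to 41.7 CPM. Its log2 fold change was 0.23 ± 0.33 (SE), with a 95% interval from 0.711-fold to 1.93-fold. Leaving out each library in turn moved it between 0.0020, without delipidated replicate 3, and 0.34, without control replicate 3. Counts fell in 8 or 9 of its 11 parts in each library, and 97.4% of them in parts that hold at least some coding sequence.

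Agpat2, the gene mutated in a congenital lipodystrophy in humans, lies on chromosome 2 from 26593057 to 26604417, minus strand. It was at 1.01, 1.51 and 0 CPM in control replicates 1, 2 and 3 and at 4.39, 2.70 and 1.91 CPM in delipidated replicates 1, 2 and 3. All delipidated libraries were above all control libraries, and the 0 in control replicate 3 allows up to 0.228 CPM, the level of 3 counts there, as far as counting error goes. For Agpat2 the log2 fold change was 1.82 ± 1.38 (SE), with a 95% interval from 0.438-fold to 28.5-fold, an unadjusted p of 0.211 and an edgeR adjusted p of 1.00. This separation rested on few parts. Of the 16 parts, 2, 5 and 0 had counts in the controls and 7, 5 and 2 after delipidation, and 0 parts had a count in all 6.

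Most counts of Agpat2 in delipidated replicate 1 came from its 5′ parts, whereas the highest part over the 6 libraries was the 3′ part from 26593057 to 26593762, with 31% of the counts. That 3′ part held 11, 4 and 0 counts in the controls and 20, 9 and 17 after delipidation. It overlaps an exon of Egfl7 on the opposite strand, and the Egfl7 part at that place had 0 counts in all 6 libraries. In an alternative chosen after seeing the data, with that part left out, the counts of Agpat2 were 1, 21 and 0 in control and 69, 35 and 10 in delipidated libraries. Delipidated replicate 3 then lay below control replicate 2, and the groups overlapped, while the log2 fold change was 2.17 ± 1.64 (SE) beside 1.82 with the part.

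Agpat3, an enzyme of the Golgi and endoplasmic reticulum, lies on chromosome 10 from 78269178 to 78352489, minus strand. It was at 5.06, 2.78 and 7.75 CPM in control replicates 1, 2 and 3 and at 0.346, 10.5 and 0.635 CPM in delipidated replicates 1, 2 and 3. Delipidated replicate 2 was the highest of all libraries, and the remaining delipidated libraries were the lowest. This spread gave a log2 fold change of -0.44 ± 1.12 (SE), with a 95% interval from 0.134-fold to 4.06-fold. Its size and sign varied with the libraries used, since it was -3.39 (edgeR unadjusted p = 0.0139, adjusted p = 1.00) without delipidated replicate 2, 0.11 without delipidated replicate 1 and 0.06 without delipidated replicate 3. The method also moved it, to -4.50 (edgeR unadjusted p = 0.0436, adjusted p = 1.00) when the part with the highest total stood for the gene, to -2.20 with the replicate number as a block and to -1.85 with limma-voom. Of the 30 parts, 15 were at 0 in all libraries, among them the whole 5′ stretch of non-coding parts, and the parts with counts numbered 12, 8 and 11 in the controls and 1, 12 and 3 after delipidation.

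Related acyltransferases that the list leaves out were also measured. Agpat4 was at 3.97, 0.302 and 3.65 CPM in control and at 0, 0.369 and 0 CPM in delipidated libraries, and did not pass the filter on low counts. Lclat1, which codes for a lysocardiolipin acyltransferase, was at 58.0, 74.3 and 39.1 CPM in control and at 99.8, 105 and 61.1 CPM in delipidated libraries. For Lclat1 delipidated replicate 3 lay within the control range and the other delipidated libraries above it, with a log2 fold change of 0.63 ± 0.32 (SE), an unadjusted p of 0.0722 and an edgeR adjusted p of 1.00.

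Lpin1 codes for a phosphatidic acid phosphatase prominent in adipose tissue and muscle, and its parts in the files lie on chromosome 12 from 16535669 to 16589770, minus strand. It was at 10.4, 4.84 and 6.46 CPM in control replicates 1, 2 and 3 and at 1.83, 4.36 and 1.69 CPM in delipidated replicates 1, 2 and 3. All delipidated libraries lay below all control libraries, by a margin of 4.36 against 4.84 CPM at the nearest pair. For Lpin1 the log2 fold change was -1.46 ± 0.74 (SE), with a 95% interval from 0.119-fold to 1.11-fold, an unadjusted p of 0.0722 and an edgeR adjusted p of 1.00, and DESeq2 gave a log2 fold change of -1.46, an unadjusted p of 0.0364 and an adjusted p of 0.704. Without delipidated replicate 2 edgeR gave -2.03, an unadjusted p of 0.0381 and an adjusted p of 1.00. The edgeR fit without control replicate 1 gave -1.09 with an unadjusted p of 0.266, and that without delipidated replicate 3 gave -1.22 with 0.163. Lpin1 had the smallest unadjusted p of the 9 enzymes and was 687th among all tested genes.

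The RNA of Lpin1 was thinly covered. Of its 22 parts, 14, 10 and 10 had counts in the controls and 5, 10 and 5 after delipidation, and 0 parts had a count in all 6. The highest part, the last exon from 16535669 to 16538572, held 24, 13 and 16 counts in the controls and 11, 9 and 0 after delipidation. Leaving out each library in turn moved the log2 fold change between -2.03 and -1.09, and it stayed negative under every alternative run. As the number of genes with a count was also lower in all 3 delipidated libraries, the part of that difference in the lower values of Lpin1 was not tested.

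Lpin2 codes for the lipin that is abundant in liver, and lies on chromosome 17 from 71182560 to 71249817, plus strand. It was at 86.0, 77.6 and 89.2 CPM in control replicates 1, 2 and 3 and at 71.7, 65.6 and 133 CPM in delipidated replicates 1, 2 and 3. Delipidated replicate 3 was the highest library and the other delipidated libraries were the lowest, so the groups overlapped, with means of 84.3 ± 5.98 (SD, n = 3) and 90.0 ± 37.0 CPM (SD, n = 3). Lpin2 had a log2 fold change of 0.09 ± 0.30 (SE), with a 95% interval from 0.677-fold to 1.68-fold, the narrowest of the 9. It was -0.30 without delipidated replicate 3 and -0.46 when the part with the highest total stood for the gene. Of its 49 parts, 26 had counts in all 6 libraries.

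Per length, Lpin2 made up 79.5%, 88.2% and 86.6% of the RNA of both lipins in the controls and 94.8%, 87.6% and 97.3% after delipidation. The log2 ratio of Lpin2 over Lpin1 counts was 3.05, 3.996 and 3.78 in control and 5.28, 3.90 and 6.26 in delipidated libraries. Delipidated replicate 2 lay within the control range and the other delipidated libraries above it, and the difference of the group means was 1.54, with p = 0.2 in an exact two-sided permutation test and 0.4 after adjustment over 4 such ratios. It was 0.98 without delipidated replicate 3 and 2.16 without delipidated replicate 2 (exact permutation test, p = 0.2 and 0.1, adjusted p = 0.6 and 0.2). Groups of 3 against 3 allow no p under 0.1. Lpin3, the remaining lipin gene, was at 1.35, 3.27 and 0.0760 CPM in control and 1.68, 1.84 and 2.97 CPM in delipidated libraries, with overlapping groups and a log2 fold change of 0.46 ± 1.27 (SE).

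Dgat1 codes for an endoplasmic reticulum enzyme of the last step that also uses fatty acids taken up from outside, and lies on chromosome 15 from 76502015 to 76511951, minus strand. It was at 3.97, 10.2 and 22.3 CPM in control replicates 1, 2 and 3 and at 5.14, 12.2 and 20.0 CPM in delipidated replicates 1, 2 and 3. The groups covered almost the same range, with means of 12.2 ± 9.35 (SD, n = 3) and 12.5 ± 7.46 CPM (SD, n = 3). Dgat1 had a log2 fold change of 0.03 ± 0.68 (SE), with a 95% interval from 0.367-fold to 2.86-fold. That interval includes a log2 change of 1 in either direction, so a change of that size is not excluded by these libraries. Of its 40 parts, 20, 25 and 23 had counts in the controls and 5, 20 and 32 after delipidation.

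Dgat2 codes for the unrelated enzyme of the same step, which can act at the droplet surface and is tied to newly made fatty acids, and lies on chromosome 7 from 99153658 to 99182719, minus strand. It was at 0.337, 7.86 and 8.89 CPM in control replicates 1, 2 and 3 and at 2.52, 6.94 and 3.18 CPM in delipidated replicates 1, 2 and 3. Control replicate 1 was the lowest library and the other control libraries were the highest, so the delipidated values lay between them. The log2 fold change was -0.44 ± 0.97 (SE), with a 95% interval from 0.168-fold to 3.24-fold, and it was 0.03 without control replicate 3. Coverage was patchy, with counts in 2, 13 and 11 of its 18 parts in the controls and in 3, 10 and 7 after delipidation.

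The balance of both enzymes of the last step overlapped between the groups. The log2 ratio of Dgat2 over Dgat1 counts was -3.40, -0.37 and -1.33 in control and -1.02, -0.81 and -2.64 in delipidated libraries. The groups differed by 0.21 (exact two-sided permutation test, p = 0.8; adjusted p = 0.8). The same comparison gave 2.63 for Agpat2 over Agpat1 (p = 0.1, the smallest this design can give; adjusted p = 0.4, exact permutation test) and 2.02 for Agpat5 over Agpat3 (p = 0.4, adjusted p = 0.533, exact permutation test). In the former ratio all delipidated libraries were above all control libraries, at -2.87, -5.17 and -5.07 against -5.79, -5.40 and -9.82, and the lowest value comes from control replicate 3, the library with 0 counts of Agpat2. The size of that difference rests on the 0.5 added to this 0, as it was 1.22 without control replicate 3, 3.42 with a pseudocount of 0.1 and 1.45 with a pseudocount of 5. Without the parts that overlap other genes, an alternative chosen after seeing the data, the ratio of Agpat2 over Agpat1 was -6.23 in delipidated replicate 3 and -5.40 in control replicate 2, so the groups overlapped, and the difference was 3.08 (exact permutation test, p = 0.2; adjusted p = 0.4). For Agpat5 over Agpat3 the difference was 3.58 without delipidated replicate 2, 1.19 without delipidated replicate 1 and 1.31 without delipidated replicate 3.

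Monoacylglycerol acyltransferases, which make diacylglycerol by another route, were near the detection limit. Mogat1 was at 1.18, 0.363 and 1.75 CPM in control and 1.68, 1.84 and 0.706 CPM in delipidated libraries, and Mogat2 had counts in control replicate 1 alone, at 0.337 CPM. Tmem68, reported to make triacylglycerol independently of the Dgat enzymes, was at 18.5, 26.9 and 15.8 CPM in control and at 43.3, 17.6 and 32.1 CPM in delipidated libraries. For Tmem68 delipidated replicates 1 and 3 were the highest libraries and delipidated replicate 2 lay within the control range, with a log2 fold change of 0.60 ± 0.42 (SE) and an edgeR adjusted p of 1.00.

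Over the 21 other enzymes and regulators of the pathway that were listed, 17 passed the filter, and edgeR called 0 higher and 0 lower. Their log2 fold changes were positive for 8 and negative for 9, with a median of -0.07. Besides Lclat1, the smallest unadjusted p belonged to Gpd1, the cytosolic glycerol-3-phosphate dehydrogenase gene, at 1.69, 5.93 and 4.33 CPM in control and 0.889, 1.29 and 0 CPM in delipidated libraries. All delipidated libraries of Gpd1 lay below all control libraries, as did their numbers of genes with a count, with a log2 fold change of -2.44 ± 1.34 (SE), an unadjusted p of 0.0945 and an edgeR adjusted p of 1.00. For 3 of the 17 every delipidated library was below every control library, and for 0 of the 17 above, beside 5.05% and 3.81% of all tested genes. Apart from Gpd1 these were Gk and Lpgat1, named here after their values were seen. Gk, the glycerol kinase gene, was at 33.6, 35.3 and 36.3 CPM against 21.7, 29.1 and 26.5 CPM, with a log2 fold change of -0.44 ± 0.33 (SE), and Lpgat1, a lysophospholipid acyltransferase gene, at 35.9, 30.3 and 29.8 CPM against 28.1, 25.7 and 26.8 CPM, with -0.25 ± 0.32 (SE). Gpd1l, a relative of Gpd1, had overlapping groups and a log2 fold change of 0.03 ± 0.21 (SE).

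**Figure D2:**
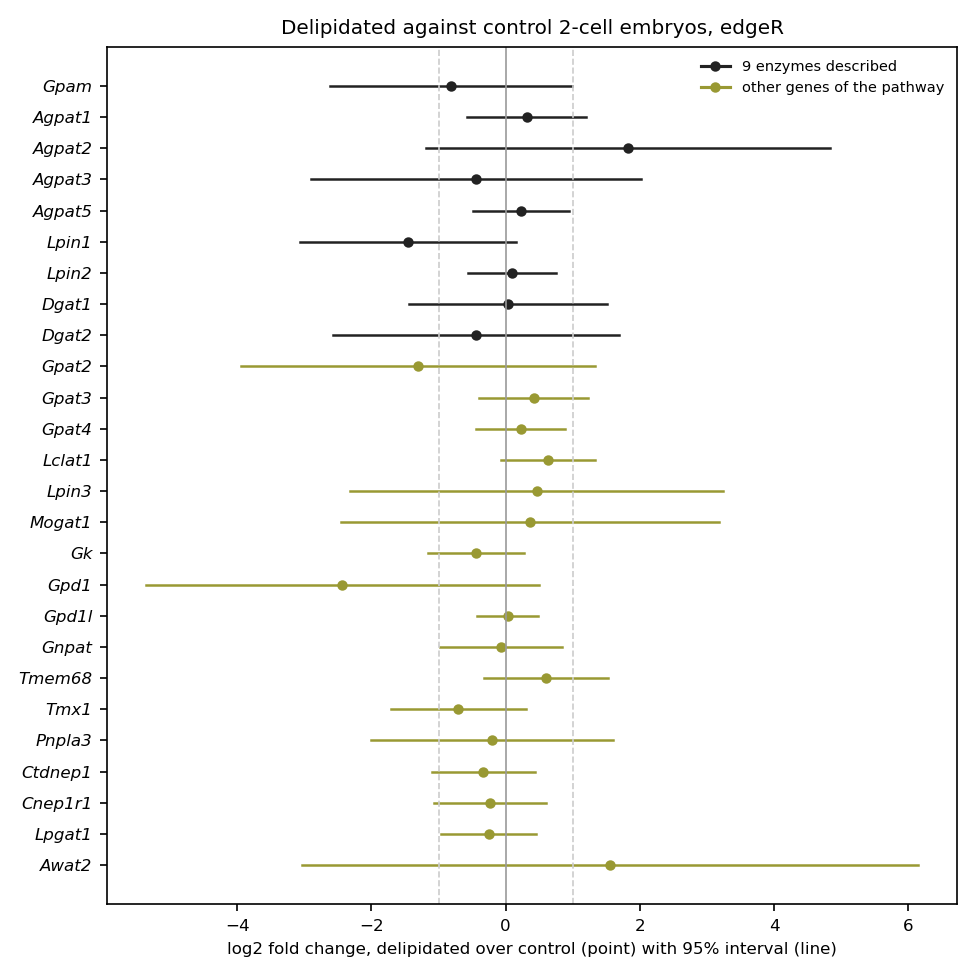
The log2 fold change of delipidated over control embryos from edgeR is plotted on the horizontal axis as a point with its 95% interval as a line, for the 9 enzymes and for the 17 tested genes among the other enzymes and regulators, with dashed lines at -1 and 1. Every interval spans 0, and among the 9 enzymes those of Agpat5 and Lpin2 stay within -1 and 1.

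Levels of the enzymes were compared with each other per length, in CPM per kilobase of exonic parts over all 6 libraries. Agpat1 was first at 19.7 ± 8.12 (SD, n = 6), followed by Lpin2 at 7.12 ± 1.96, Dgat1 at 4.03 ± 2.48, Agpat5 at 3.66 ± 0.804 and Gpam at 2.47 ± 2.03. Dgat2 followed at 1.61 ± 1.11, Agpat2 at 0.902 ± 0.709, Lpin1 at 0.861 ± 0.566 and Agpat3 at 0.596 ± 0.535 CPM per kilobase. Among the 4 Agpat genes, Agpat1 made up between 66.5% and 84.4% of the level per length in each library and Agpat5 between 8.81% and 23.7%, by a measure that depends on how the exons are cut. Among both Dgat genes, Dgat1 made up between 56.6% and 92.2% by this measure, which is raised by its many short parts.

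Neighbours in that order were tested by the log2 ratio within each library with an exact two-sided sign-flip permutation test, adjusted over 8 pairs. As the order came from the same 6 libraries, these p-values describe the pairs and are no independent test of the order. Agpat1 was above Lpin2 in 6 of 6 libraries, with a mean log2 ratio of 1.40 ± 0.72 (SD, n = 6), and Gpam above Dgat2 in 6 of 6, with a mean of 0.67 ± 0.45 (SD, n = 6). Both reached p = 0.03125 in the exact test, the smallest that 6 libraries allow, and an adjusted p of 0.125. Lpin2 exceeded Dgat1 in 5 of 6 libraries with a mean log2 ratio of 1.05 ± 0.90 (exact p = 0.0625, adjusted p = 0.167, n = 6). An adjusted p under 0.05 would need at least 6 of the 8 pairs at that smallest p, and 2 reached it, so the adjusted values do not show that neighbours are at the same level. Over the length of the parts with counts alone, Gpam over Dgat2 was 0.35 (exact p = 0.125, n = 6) and Lpin2 over Dgat1 1.58 (exact p = 0.03125, n = 6). The pairs of Dgat1 with Agpat5 and of Agpat2 with Lpin1 were split evenly, with the upper gene higher in 3 of 6 libraries each, and their mean log2 ratios, -0.10 and -0.51, ran against the order of the mean levels.

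Dgat1 is cut into 40 parts with a median length of 43.5 bases, and a read over several short parts adds to each, which raises its level per length relative to genes with long parts. In an alternative chosen after seeing the data, 150 bases, the length of 1 sequenced read, were added to every part. Agpat5 was then at 3.17 ± 0.697 and Dgat1 at 1.36 ± 0.836 CPM per kilobase (SD, n = 6), with a mean log2 ratio of Dgat1 over Agpat5 of -1.46. Agpat1 and Lpin2 remained first and second, at 9.36 and 4.45 CPM per kilobase, and Agpat3 last. Dgat1 and Gpam were then level, at 1.36 CPM per kilobase each, Lpin1 ranked above Agpat2, and 4 of the 9 enzymes had another rank. Among the 4 Agpat genes, Agpat1 then made up between 56.9% and 77.9% and Agpat5 between 14.8% and 35.5%. The share of Dgat1 among both Dgat genes was then between 45.2% and 88.2%, and Dgat2 was the higher one in control replicate 2, at 54.8%. Of the 8 pairs of the first order, 5 reached p = 0.03125 in the exact test in that setting, with an adjusted p of 0.05, while Dgat1 and Gpam are not among these pairs and were not compared by a test.

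**Figure D3:**
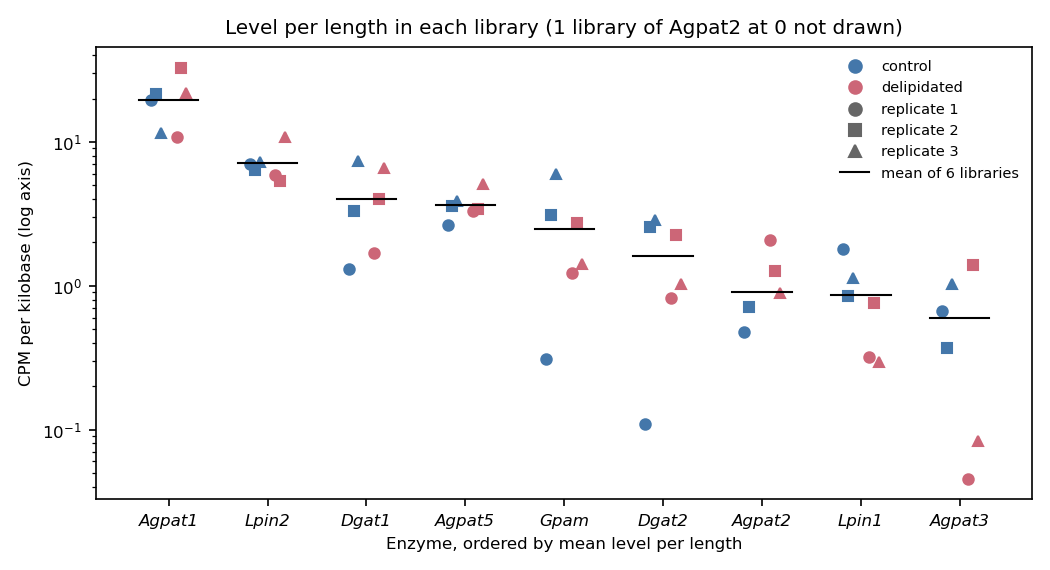
The level of each enzyme in CPM per kilobase of exonic parts is plotted on a log axis for each library, with symbols for replicate numbers, colors for groups and a line at the mean of 6 libraries. Agpat1 and Lpin2 lead the order with means of 19.7 and 7.12, and the libraries of the lower enzymes scatter widely, down to 0.0456 for Agpat3. The 0 of Agpat2 in control replicate 3 cannot be drawn on this axis.

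Counts in the exonic parts at annotated starts were compared with promoter entries. RefSeq promoter entries on build GRCm38.p6, each with 250 bases before and 50 bases after a start, matched 6 of the 9 enzymes, with 10 entries in all. Agpat1 has 2 entries. The part that begins at the upstream start, from 34605861 to 34605972, held 0, 36 and 40 counts in the controls and 0, 6 and 1 after delipidation, and the adjoining part, from 34605973 to 34606171, held 18, 55 and 66 against 0, 52 and 26, whereas the part at the downstream start, 34609014, had 0 counts in all 6. Further upstream, outside both windows, the part from 34604262 to 34604490 held 8 counts in delipidated replicate 3 alone, and the part from 34604844 to 34604942 held 0, 4 and 0 in control and 5, 0 and 15 in delipidated libraries. None of these parts of Agpat1 had counts in all 6 libraries. Lpin2 has 3 entries. At its first start, 71183532, the following part, from 71183556 to 71183722, held 3, 0 and 14 counts in control and 37, 3 and 20 in delipidated libraries, whereas the part at 71183978 had 22 counts in control replicate 3 alone. The part at 71204654 and the one after it had 4 counts in control replicate 1 alone. A longer first exon of Lpin2 that lies upstream of that promoter window, from 71182560 to 71183257, had 15, 27 and 43 counts in control and 42, 37 and 34 in delipidated libraries, the only one of these first exons covered in 6 of 6 libraries.

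For Agpat1 and Lpin2, the window of the entry whose first 50 bases touch the part with the most counts is shown, which does not mark it as the start in use. They lie at chr17:34605611-34605910 and chr17:71183282-71183581, both on the plus strand. Capitals mark the letters CACGTG, the E-box that many basic helix-loop-helix factors recognise, which reads the same on both strands. It was found once, in this window of Lpin2, among the 10 windows of the enzymes, and 7.15% of all 32851 promoter windows hold it. A match describes the letters and not the binding of a factor.
Agpat1: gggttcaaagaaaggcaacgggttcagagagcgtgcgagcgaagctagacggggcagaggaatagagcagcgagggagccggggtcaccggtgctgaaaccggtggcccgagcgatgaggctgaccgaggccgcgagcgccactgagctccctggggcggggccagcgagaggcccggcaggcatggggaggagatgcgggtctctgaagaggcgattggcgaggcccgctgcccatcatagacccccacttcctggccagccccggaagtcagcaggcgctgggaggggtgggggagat
Lpin2: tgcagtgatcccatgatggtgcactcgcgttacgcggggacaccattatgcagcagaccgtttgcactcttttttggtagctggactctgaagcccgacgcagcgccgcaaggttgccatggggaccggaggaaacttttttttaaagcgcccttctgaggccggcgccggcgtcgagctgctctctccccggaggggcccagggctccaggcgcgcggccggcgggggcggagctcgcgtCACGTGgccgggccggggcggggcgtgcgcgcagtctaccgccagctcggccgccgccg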

How the data were processed

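RNA of 3 control and 3 delipidated libraries of 2-cell embryos was read from the deposited files. Per the labels and the study's methods, the authors used a total RNA kit with depletion of ribosomal RNA, bcl2fastq 2.20, Trimmomatic 0.36, STAR 2.5.2b and featureCounts on build mm10. The authors deposited raw counts per exonic part, without normalization. The 9 enzymes, the other lists and the tests were chosen with earlier results of these data known.

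Counts were summed per gene. Of 425461 parts, 33309 stood under joined identifiers, and 27968 of these overlapped exons of a single one of their genes in GENCODE M21 and were given to it. The remainder was dropped, which cost each library 2.49% to 2.57% of its counts. No part of the 9 enzymes was joined. Reads over neighbouring parts add to each, so sums exceed reads and their counting precision is overstated. The kit amplifies without molecular identifiers in the counts used, so the level that 3 counts allow covers counting error only.

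Delipidated and control libraries were tested in R 4.3.3 by edgeR 4.0.16. Genes were kept by filterByExpr (count minimum 10, total minimum 15), with TMM factors and the quasi-likelihood test without covariates. Standard errors are the log2 fold change divided by the root of the F statistic, and 95% intervals are approximate. The common biological coefficient of variation was 0.663. Ratios used counts plus 0.5. Genes named are the 9 enzymes, fixed examples of the 21 other genes of the pathway with the pair of smallest p-values, fixed cell markers, and Gpat2, Gk, Lpgat1 and Gpd1l, named after their values were seen. The alternatives were DESeq2 1.42.0 with no filter, its size factors in edgeR, library totals, omission of the filter, a filter on a mean count of 50, limma-voom (limma 3.58.1), the replicate block, each library left out, other treatment of joined parts, the highest part per gene, other lengths and pseudocounts of 0.1 and 5. Tables were processed with Python 3.11.15.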

Additional observations from a re-analysis of the deposited data

How the results depend on the processing

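The count of genes called by edgeR was 0 in each direction, and 0 of the 9 enzymes were called under any of the 18 alternatives. DESeq2 with no filter called 9 genes higher and 40 lower, and edgeR with no filter called 5 higher and 25 lower, over 30967 genes with a count. An adjusted p under 0.05 without the fold change threshold also called 0 enzymes, and Agpat2 was not tested at a mean count of 50. For the 8 neighbouring pairs by level per length, library totals and the omission of joined parts cannot change a ratio. Per covered length 2 pairs reached the smallest exact p, with Gpam over Dgat2 at 0.125, and 5 did with 150 bases per part, where 6 were needed for an adjusted p under 0.05, so the count of 0 that passed says nothing about stability. Of 161 log2 fold changes of the enzymes recomputed, 144 kept their sign and 17 turned it, all of them among Gpam, Agpat1, Agpat3, Lpin2, Dgat1 and Dgat2, and the cause was not tested.

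Leaving out each library in turn gave ranges of -1.34 to 0.055 for Gpam, -0.11 to 0.64 for Agpat1, -3.39 to 0.11 for Agpat3, 0.0020 to 0.34 for Agpat5, -0.30 to 0.28 for Lpin2, -0.49 to 0.81 for Dgat1, -1.0005 to 0.028 for Dgat2, -0.65 to 0.87 for the difference in the log2 ratio of Dgat2 over Dgat1, 1.22 to 3.44 for that of Agpat2 over Agpat1 and -0.37 to 0.23 for the median over the enzymes. The difference for Dgat2 over Dgat1 was -0.033 with a pseudocount of 5. With the part of the highest total, Agpat3 was at -4.50, Lpin2 at -0.46, Dgat1 at -0.25 and Dgat2 at 0.29. Over all alternatives Agpat2 ranged from 1.18 to 2.84 and Lpin1 from -2.03 to -0.89. Dgat1 was at -0.012 on library totals without TMM, Gpam at -0.23, Dgat2 at 0.13 and Agpat3 at -1.85 with limma-voom, and Dgat1 over Agpat5 per covered length at 0.017. Without both libraries numbered 1, an alternative chosen after seeing the data, Agpat3 was at 0.088 and Dgat1 at -0.0078.

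With the replicate number as a block, edgeR called 0 genes higher and 0 lower, Gpam was at -0.16, Dgat2 at 0.22 and Agpat3 at -2.20. Deviations of same-numbered libraries from their group means correlated at -0.13, 0.11 and 0.07, and those of differently numbered libraries at -0.26 to 0.21. Deviations within a group of so few libraries depend on each other, so these values do not settle whether the numbers pair the samples.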
